A study of Mus musculus with 8 samples.

Results

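Barcodes carrying the RNA of mast cells were followed in single-cell libraries of embryonic mouse back skin. A barcode was selected on measured values: at least 1000 genes, at most 10% of UMIs (unique molecular identifiers, each counting 1 captured transcript) in mitochondrial genes, at least 20 summed UMIs of Cma1, Cpa3 and Tpsb2, and at least 1 UMI of Hdc, Gata2 or Kit. The rule found 218 of the 7486 barcodes that passed the gene and mitochondrial filter, which came from 8339 barcodes in all. The groups were E15 KO (2 libraries), E15 control (1 WT and 1 HET library), E13 KO (2 libraries) and E13 control (1 WT and 1 HET library). KO embryos carried the <delta>Np63-GFP knock-in as a knockout of the deltaN form of Trp63, HET embryos were heterozygous for that allele, and WT embryos lacked it, so control held the allele in 1 of its libraries at each age. E13 and E15 are embryonic days 13 and 15. Skin was digested with collagenase and trypsin and captured with a 10x 3′ kit. The number of embryos behind a library is not stated in the labels, so p-values measure the spread between libraries, which may be technical. Trp63, on mouse chromosome 16, was at 0.379 and 0.298 CPM (UMIs of a gene scaled to a fixed library total) in E15 KO libraries, against 28.0 CPM in WT and 7.95 CPM in HET at E15; a 3′ tag may lie outside the altered part of the gene. Xist stood at 1143 to 1530 CPM in the 4 libraries of E13, and Y-linked genes summed to 131 to 159 CPM in the 4 of E15, so age and sex cannot be told apart.

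Mast cells are tissue-resident cells of the blood lineage that seed the fetal skin as immature precursors and fill with secretory granules there. Their granules hold proteases (the chymase-type enzyme Cma1, the carboxypeptidase Cpa3, the tryptases Tpsb2 and Tpsab1) packed on the proteoglycan core protein serglycin (Srgn) together with histamine, made by Hdc. The receptor KIT, bound by KIT ligand from stromal and epithelial cells, keeps mast cells alive; GATA2 and MITF are transcription factors of the lineage; and the high-affinity IgE receptor, built from Fcer1a, Ms4a2 and Fcer1g, triggers release of the granules. Basophils share several of these genes and are known for Mcpt8 and Prss34.

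Promoters of 4 mast genes are shown because the genes that define these barcodes are known for control by GATA factors. The letters AGATAA are 1 form of the site that these factors bind. RefSeq sequences of GRCm38.p6 cover 250 bases before and 50 after the listed start of a gene, 5′ to 3′ on its own strand, and capitals mark AGATAA or its reverse complement TTATCT. Cpa3 (chr3:20242132-20242431, minus strand) is one of the rule genes, Tpsg1 (chr17:25369023-25369322, plus strand) a membrane tryptase whose window overlaps the end of Tpsb2, Ms4a2 (chr19:11623670-11623969, minus strand) the beta chain of the IgE receptor, and Cma1 (chr14:55944626-55944925, minus strand) the most abundant rule gene at E15.
Cpa3 promoter: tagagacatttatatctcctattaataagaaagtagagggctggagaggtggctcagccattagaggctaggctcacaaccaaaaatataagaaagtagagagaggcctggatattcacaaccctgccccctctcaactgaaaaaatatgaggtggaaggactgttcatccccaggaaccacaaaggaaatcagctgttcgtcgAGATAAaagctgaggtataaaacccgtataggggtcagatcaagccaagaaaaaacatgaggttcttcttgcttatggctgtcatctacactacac
Tpsg1 promoter: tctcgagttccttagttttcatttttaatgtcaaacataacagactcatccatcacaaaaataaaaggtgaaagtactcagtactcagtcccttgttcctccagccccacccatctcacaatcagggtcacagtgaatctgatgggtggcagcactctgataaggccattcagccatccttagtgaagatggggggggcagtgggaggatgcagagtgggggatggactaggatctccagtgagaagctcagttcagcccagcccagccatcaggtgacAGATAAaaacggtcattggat
Ms4a2 promoter: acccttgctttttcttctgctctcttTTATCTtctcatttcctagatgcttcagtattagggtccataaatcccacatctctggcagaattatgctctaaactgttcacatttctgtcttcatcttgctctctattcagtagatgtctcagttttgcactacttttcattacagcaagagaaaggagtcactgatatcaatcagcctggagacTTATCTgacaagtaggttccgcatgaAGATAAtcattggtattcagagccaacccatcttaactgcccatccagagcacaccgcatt
Cma1 promoter: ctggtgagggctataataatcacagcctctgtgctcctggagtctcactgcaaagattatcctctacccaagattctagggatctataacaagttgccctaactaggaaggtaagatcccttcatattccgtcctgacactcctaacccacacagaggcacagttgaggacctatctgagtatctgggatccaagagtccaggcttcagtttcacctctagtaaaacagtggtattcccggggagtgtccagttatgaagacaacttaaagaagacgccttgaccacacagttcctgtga
Cpa3 held 1 match, 40 bases before the start. Ms4a2 held 3, at 218, 31 and 5 bases before the start, Tpsg1 held 1 after its start, and Cma1 held 0 in this window. Among 43 promoters found for 55 listed genes of the granule protease, granule amine and proteoglycan, IgE receptor and transcription factor lists, 8 (18.6%) had a match on either strand, against 3083 of all 27025 (11.4%). By list the counts were 2 of 9 granule proteases, 1 of 9 amine and proteoglycan genes, 4 of 11 IgE receptor and signalling genes and 1 of 14 transcription factors. A match is a description of the letters and was not read as a bound site. Other forms of the GATA site were not counted, so a window with no match may still hold them.

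Mast barcodes were scarce at E13 and made up several percent of the barcodes at E15. Their numbers were 56 in E15 KO 1 and 75 in E15 KO 2, against 17 in WT and 52 in HET at that age. At E13 they were 6 in KO 1 and 3 in KO 2, against 0 in WT and 9 in HET. At E15 they were 5.70% (exact 95% interval 4.33 to 7.33) of kept barcodes in KO 1 and 5.64% (4.46 to 7.02) in KO 2, against 3.37% (1.97 to 5.34) in WT and 6.72% (5.06 to 8.72) in HET. The KO libraries therefore lay between the 2 control libraries. The E15 means were 5.67% ± 0.0408 in KO and 5.04% ± 2.37 in control (SD, n = 2 each), with p = 1 in a two-sided exact permutation test, which at 2 against 2 cannot go below 0.33. Left without WT, the KO minus control difference was −1.05 percentage points, and without HET it was 2.30, so its sign turned with the WT library. At E13 the shares were 0.553% (0.203 to 1.20) and 0.422% (0.0871 to 1.23) in KO, against 0.754% (0.345 to 1.43) in HET, and 0 of 904 barcodes in WT, where the exact interval reaches 0.407%. The intervals cover counting error only.

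**Figure D1:**
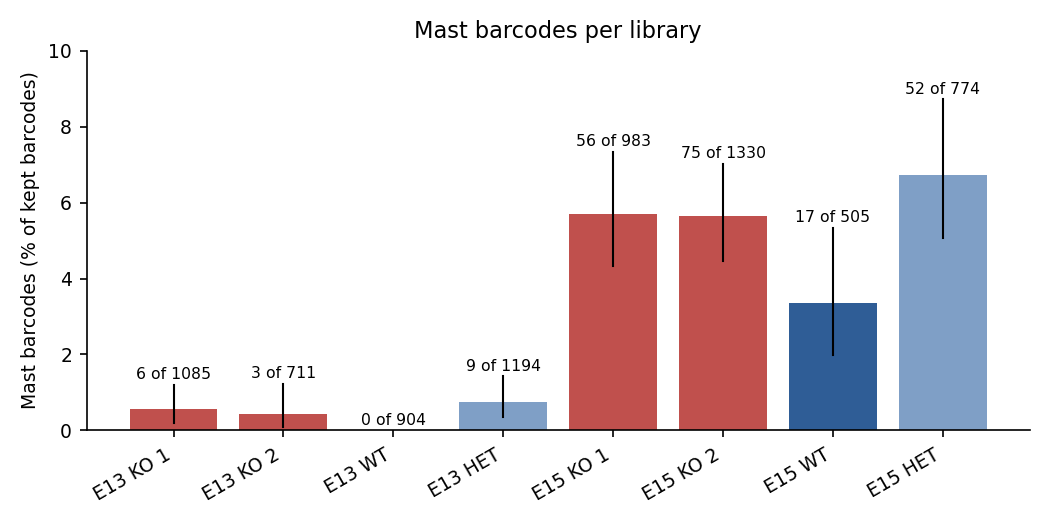
Mast barcodes as a percentage of kept barcodes in each library; lines are exact 95% binomial intervals and the numbers above the bars are mast barcodes of all kept barcodes. E13 libraries held 0 to 9 mast barcodes and E15 libraries 17 to 75, and the 2 E15 KO bars stand between those of WT and HET.

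The RNA of the rule genes was also present outside mast barcodes, at a level that differed between libraries. Of the other barcodes at E15, 91.8% in KO 1 and 93.4% in KO 2 carried at least 1 UMI of Cma1, Cpa3 or Tpsb2, against 42.8% in WT and 86.1% in HET. These genes took 206 and 243 CPM of the other barcodes in the KO libraries, against 44.2 in WT and 146 in HET. At E13 the shares of other barcodes with such a UMI were 5.38% and 4.52% in KO, against 0.664% in WT and 20.2% in HET. The proportions of the 3 genes were set side by side in both kinds of barcode at E15. Cma1 made up 60.9% and 59.9% of their UMIs in mast barcodes of KO 1 and KO 2, and 65.2% and 68.0% in WT and HET, while in other barcodes it made up 60.7% and 59.0% in KO, against 56.8% and 65.1% in WT and HET. Tpsb2 took a larger share in the other barcodes of every E15 library, at 21.5% and 25.6% in KO and 21.9% and 17.8% in WT and HET, than in the mast barcodes, at 16.8% and 19.2% in KO and 12.7% and 13.1% in WT and HET. In the interval from 10 to 19 rule UMIs, just outside the rule, there were 33 and 39 barcodes in the KO libraries and 0 and 6 in WT and HET; just inside it, from 20 to 39, there were 2 and 5, against 2 and 0.

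Of the 131 E15 KO mast barcodes, 6 had the rule genes at the level of the other barcodes. They held 20 to 24 rule UMIs among 55767 to 99157 UMIs, or 0.0218% to 0.0377%, where the other barcodes of KO 1 and KO 2 had 0.0206% and 0.0243%. The other 125 E15 KO members had at least 0.399%, and the E15 control members at least 0.198%. In these 6, 2 of KO 1 and 4 of KO 2, Srgn had 0 to 2 UMIs and Ms4a2 had 0 in each, against 3 to 125 UMIs of Srgn in every one of the other 212 mast barcodes. Ms4a2 was detected in 144 of the 212, with a median of 1 UMI, so its absence alone does not set the 6 apart. Krtdap, a gene of differentiating keratinocytes, had 3 to 2308 UMIs in the 6 and at most 10 in the 212. In KO 1, 1 of them held 1619 UMIs of the fibroblast list, and in KO 2, 1 held 9122 UMIs of the erythroid list and 176 of the macrophage list. The bound of 0.1% of UMIs in the rule genes that separates the 6 was chosen after these values were seen; it removes no control and no E13 barcode, and with it the E15 shares were 5.49% and 5.34% in KO, against the same control values. Levels per library are given below over the 212 unless stated otherwise. Comparisons of KO with control are given over all members, over the 212 or over both, as stated.

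**Figure D2:**
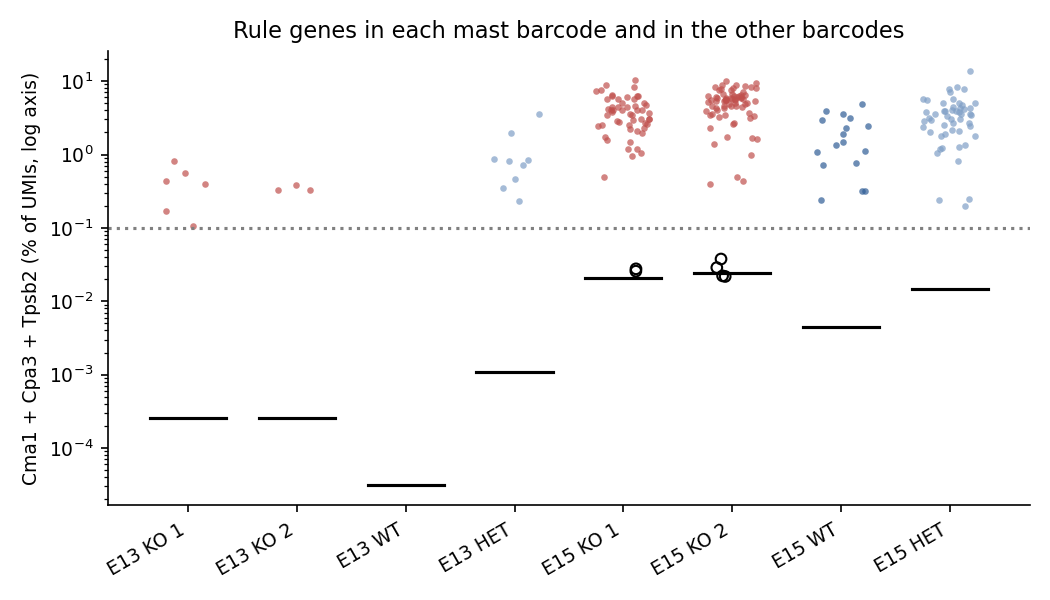
Each dot is a mast barcode, placed by the percentage of its UMIs in Cma1, Cpa3 and Tpsb2 (log axis); bars give that percentage over the other barcodes of the library, open circles are the 6 E15 KO barcodes below 0.1%, and the dotted line is 0.1%. The 6 lie at 0.0218% to 0.0377%, beside the bars of their libraries, and the other members lie from 0.105% to 13.6%.

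The 194 E15 and 18 E13 members of that set carried mast genes that the rule had not used. Of these genes, Ms4a2 was detected in 127 of the 194 and in 17 of the 18. At E15, among the 20 genes with the highest ratio of mast to other barcodes, only 6 (Cma1, Cpa3, Tpsb2, Hdc, Gata2 and Kit) had been used to choose members, and the rest describe the cells with no test, since the choice of members can set them. The 20 were taken from 1053 genes with at least 100 CPM in the mast barcodes of every E15 library. This ranking and its ratios were made over all 200 E15 members, including the 6 KO barcodes that the bound removes. Hdc led with a ratio of 213, followed by Tpsg1 at 211, Cpa3 at 197 and Adora3, an adenosine receptor of mast cells, at 194. Prss34, a serine protease known from basophils and mast cells, had a ratio of 162, Cyp11a1, a steroid synthesis enzyme, 146, and Rgs18, a regulator of G-protein signalling, 125. The list went on with Slc45a3, Smpx, Tpsab1, Srgn, Rab27b (a GTPase of granule release), Ptprcap, Gpr65, Lat2 and Csf2rb (the common receptor chain for IL-3 and GM-CSF), with Kit last at 57.2. The pan-leukocyte gene Ptprc was low, at 26.5 to 33.8 CPM in E15 mast barcodes, and 3.13 to 4.93 CPM in the other barcodes.

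The granule proteases were led by Cma1, Cpa3 and Tpsb2, whose levels are bounded from below by the rule. Levels here are CPM over the UMIs of the mast barcodes of a library, counted at 3′ ends and not scaled by length. Cma1, on chromosome 14, stood at 19635 and 25486 CPM in E15 KO, against 11763 CPM in WT and 16995 CPM in HET. Cpa3, on chromosome 3, stood at 7211 and 8924 CPM in KO, against 3979 CPM in WT and 4725 CPM in HET. Tpsb2, on chromosome 17, stood at 5414 and 8170 CPM in KO, against 2292 CPM in WT and 3271 CPM in HET. Over the 212 both KO libraries lay above both control libraries for all 3, and 41.6% of the genes tested over the 212 did not overlap between KO and control. Over all members Cma1 stood at 16464 and 18936 CPM in KO, so that KO 1 lay below HET, while Cpa3 (6039 and 6634 CPM) and Tpsb2 (4545 and 6077 CPM) lay above both control libraries. The bound of 0.1% removed KO barcodes alone, for their low share of these genes, and so raises the KO levels by construction. The other barcodes of the KO libraries also held more of this RNA, as given above. Tpsab1, a neighbouring tryptase related to Tpsb2, had 334 and 926 CPM in KO, against 248 CPM in WT and 199 CPM in HET. Mcpt4, the chymase of connective tissue mast cells, was detected in 6 and 9 KO members and in 4 WT and 5 HET members, at 34.96 and 30.6 CPM in KO, against 100 CPM in WT and 65.0 CPM in HET. The mucosal proteases Mcpt1 and Mcpt2 were at 0 to 11.6 CPM at E15 and Mcpt9 had 0 UMIs in every library.

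Of the 3 chains of the IgE receptor, the alpha chain was nearly undetected. Fcer1a, which binds IgE and is a defining mast cell marker, had 0 UMIs in both KO libraries and in WT and 1 UMI in HET at E15; 3 UMIs, the limit that a count of 0 allows, would be 3.62 and 3.16 CPM in KO and 11.1 CPM in WT. Ms4a2, the beta chain, had 100 and 110 CPM in KO, against 37.1 CPM in WT and 78.3 CPM in HET. Fcer1g, a gamma chain shared with other receptors of the blood lineage, had 1202 and 1337 CPM in KO, against 1009 CPM in WT and 1099 CPM in HET. These are levels over the 212. The IgE receptor and signalling list summed to 1953 and 2082 CPM in KO over the 212 and to 1657 and 1601 CPM over all members. In control it summed to 1624 CPM in WT and 1730 CPM in HET in either set. Kit had 282 and 206 CPM in KO, against 415 CPM in WT and 279 CPM in HET, and the IL-33 receptor Il1rl1 had 117 and 110 CPM, against 137 and 131 CPM. Gata2 had 597 and 537 CPM in KO, against 645 CPM in WT and 555 CPM in HET, and Mitf 56.7 and 40.1 CPM, against 48.2 and 39.7 CPM; for both the groups overlap. Hdc had 2152 and 1881 CPM in KO, inside the range of 3356 CPM in WT and 1421 CPM in HET. Srgn, which the rule did not use, had 2457 and 2394 CPM in KO, against 1769 CPM in WT and 1647 CPM in HET; the groups do not overlap, as for the 41.6% of tested genes given above. Mrgprb2, a receptor of mature skin mast cells, had 5 and 3 UMIs in KO, against 0 in WT and 5 in HET.

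**Figure D3:**
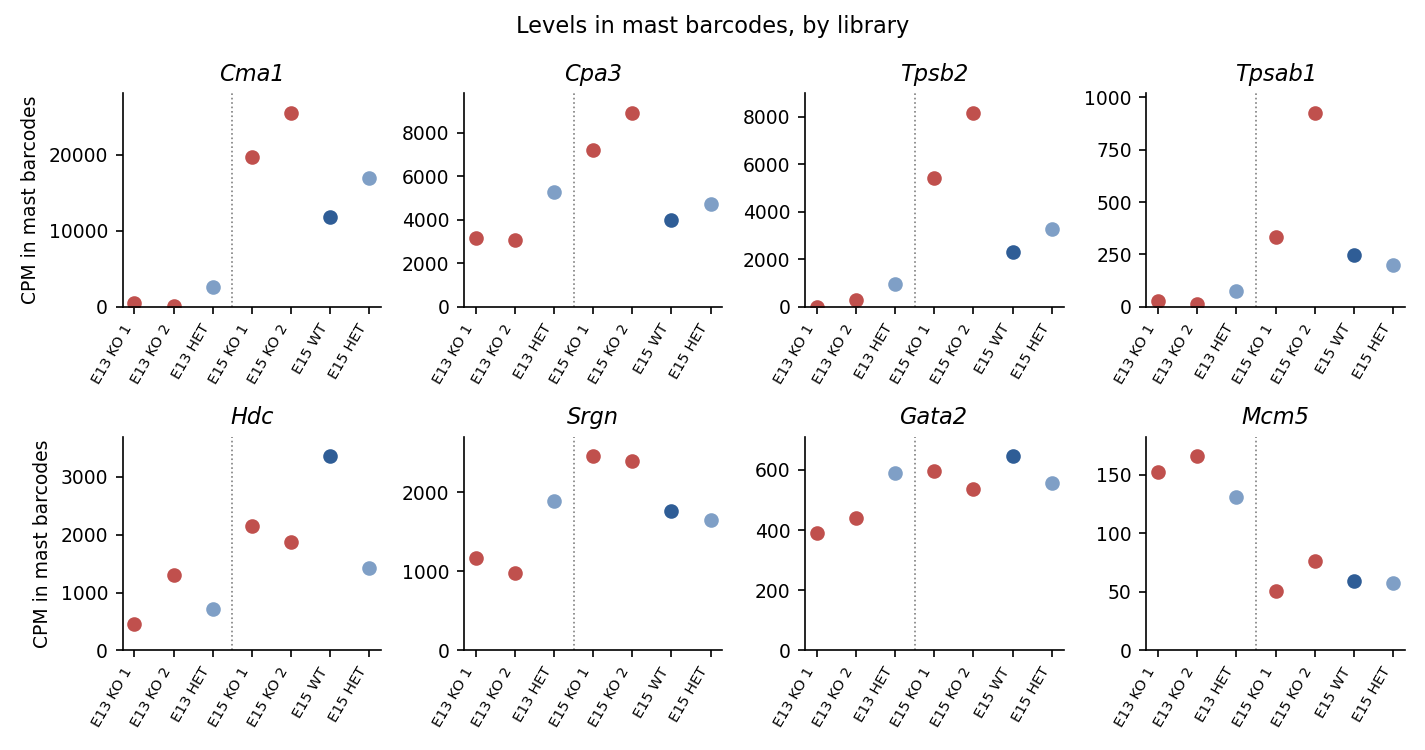
Level of 8 genes in the mast barcodes of each library (CPM over the 212 members, linear axes from 0; KO red, WT dark blue, HET light blue; E13 WT had no member and is not drawn). Cma1, Tpsb2 and Tpsab1 are low in all E13 libraries, Cpa3 is the highest protease there, and Mcm5 is higher at E13 than at E15.

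The few E13 members had another balance of proteases than those of E15. Cpa3 led the rule genes in 6 of 6 members of E13 KO 1, 3 of 3 of E13 KO 2 and 7 of 9 of E13 HET, whereas Cma1 led in 51 of 54 members of E15 KO 1, 67 of 71 of KO 2, 13 of 17 of WT and 48 of 52 of HET. Cpa3 was at 3177 and 3065 CPM in E13 KO and 5262 CPM in E13 HET. Cma1 was at 491 and 82.8 CPM in E13 KO, against 2581 CPM in E13 HET, and Tpsb2 at 6.63 and 290 CPM, against 961 CPM. Fcer1g (398 and 594 CPM in E13 KO, against 627 CPM in HET) and Rab27b (79.6 and 96.6 CPM, against 117 CPM) were below every E15 library, while Gata2 (391 and 442 CPM in E13 KO, against 591 CPM in E13 HET) reached the E15 range in HET. The S phase gene Mcm5, a subunit of the replicative helicase, had 153 and 166 CPM in E13 KO and 131 CPM in E13 HET, above the range of 50.6 to 75.9 CPM at E15. The S phase list as a whole was higher at E13 in the other barcodes too. It summed there to 1295 to 1570 CPM at E13 and 961 to 1182 CPM at E15. Prss34 had 1065 CPM in E13 HET, against 66.3 and 13.8 CPM in E13 KO, so it differed widely between libraries with few members. Members at E13 were deeper, with medians of 21374 to 22852 UMIs against 11730 to 13567 at E15, came from female libraries, and rest on 18 barcodes, so no test was made between ages.

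Members in which Cpa3 led were present at E15 too, 15 of 194. They had 2933 CPM of Cma1 and 812 CPM of Tpsb2, where the 179 members led by Cma1 had 22340 and 6022 CPM, a difference the grouping itself sets in part. Some genes outside the rule also stood lower in them. Serpinb1a, an inhibitor of serine proteases, had 302 CPM, against 1016 CPM in the Cma1-led members, Tpsab1 35.6 against 541 CPM and Lat2 80.0 against 239 CPM. Others stood higher in the Cpa3-led members: Tpsg1 had 409 against 371 CPM, Mcm5 110 against 55.5 CPM and Ccr2 20.7 against 4.72 CPM. These values pool the UMIs of the E15 libraries. Gata2, at 566 against 570 CPM, and Kit, at 284.5 against 266.5 CPM, were close in both. The Cpa3-led members were 3 of 54 and 4 of 71 in KO, against 4 of 17 in WT and 4 of 52 in HET.

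RNA of cell division genes was present in mast barcodes of both groups, and was not particular to them. A 16-gene G2 and M phase list summed to 2376 and 2328 CPM in E15 KO over the 212, against 1928 CPM in WT and 3019 CPM in HET. In the other barcodes it summed to 2016 and 2205 CPM in KO, against 2661 CPM in WT and 2849 CPM in HET. With each member thinned to 3000 UMIs, 69.6% and 50.7% of E15 KO members had at least 3 UMIs of this list, against 64.7% in WT and 61.5% in HET. The means were 60.2% ± 13.4 in KO and 63.1% ± 2.24 in control (SD, n = 2 each; p = 1, two-sided exact permutation test, smallest possible p 0.33). Unthinned, 94.4% and 81.7% of the KO members among the 212 reached 3 UMIs, against 88.2% in WT and 94.2% in HET. Asking for 5 UMIs, or leaving out KO 2, turned the sign of the difference (3.60 and 6.52 percentage points, where it was −2.97). At E13, 5 of 6 and 3 of 3 KO members and 9 of 9 HET members passed. Free RNA of dividing neighbours was not removed, and its part in these shares was not tested.

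The first comparison asked whether mast barcodes of KO skin differed from those of control skin in granule content. Over all members the summed level of 20 granule genes that the rule did not use was 3807 and 3601 CPM in KO, against 3330 CPM in WT and 3245 CPM in HET, or 3704 ± 146 in KO and 3288 ± 59.98 in control (SD, n = 2 each). The groups do not overlap, which gives p = 0.33 in the exact permutation test, the smallest it can reach. Without Srgn, the serglycin gene, the sum was 1749 and 1824 CPM in KO, against 1561 CPM in WT and 1598 CPM in HET, and the difference of the means was 207 CPM, where it was 416 CPM with Srgn. Over the 212 the KO values were 4511 and 4831 CPM, against the same control values. With the rule relaxed to 10 UMIs the difference turned to −560 CPM. In the fit across all genes, 0 of 5 tested granule proteases and 0 of 8 amine and proteoglycan genes outside the rule passed an adjusted p of 0.05 over all members, where 53 of 7373 genes (0.719%) did, and 0 passed over the 212 either, where 4 of 6666 (0.06%) did. The median log2 fold change of these 5 proteases was 0.07 over all members and 0.41 over the 212, and that of the 8 amine and proteoglycan genes −0.08 and 0.25, beside −0.01 and −0.02 over all genes tested.

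Among the proteases outside the rule, Mcpt4 came nearest to the threshold. It had a log2 fold change KO over control of −1.68 over all members (edgeR adjusted p 0.0551) and −1.31 over the 212 (adjusted p 0.221), with its UMIs in the few members given above. Tpsab1 had 1.05 and 1.43 (edgeR adjusted p 0.345 and 0.381). The rule genes are described with no test, since their UMIs chose the members. The log2 fold change of Tpsb2 was 0.40 with 10 rule UMIs asked, 0.85 with 20, 1.18 with 40 and 1.21 over the 212, so it followed the bound set on the rule genes. Cpa3 had −0.02, 0.46, 0.80 and 0.81 in the same order, and Cma1 −0.24, 0.22, 0.55 and 0.57.

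Across all genes, 50 of the 53 calls over all members were higher in KO and 3 (Krt14, Tnfaip3 and Gpc5) lower. Of 6 tested genes of the epithelial marker list, 3 (Epcam, Krt8 and Krt18) were higher and 1 (Krt14) lower, and of 5 tested genes of the fibroblast list, 4 (Col1a1, Col1a2, Col3a1 and Dcn) were higher. The 6 barcodes with the rule genes at the level of the other barcodes held 21.7% of the UMIs of the KO members and a median of 85.2% of the KO UMIs of these 50 genes, with a range of 30.4% to 100%. Krtdap had 5963 UMIs in the KO members, of which 5850 lay in the 6, against 80 in the control members. Krt8 had 265 in KO, of which 256 lay in the 6, against 0 in control. Without the 6, 4 genes passed, and 1 of the 53 was among them.

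**Figure D4:**
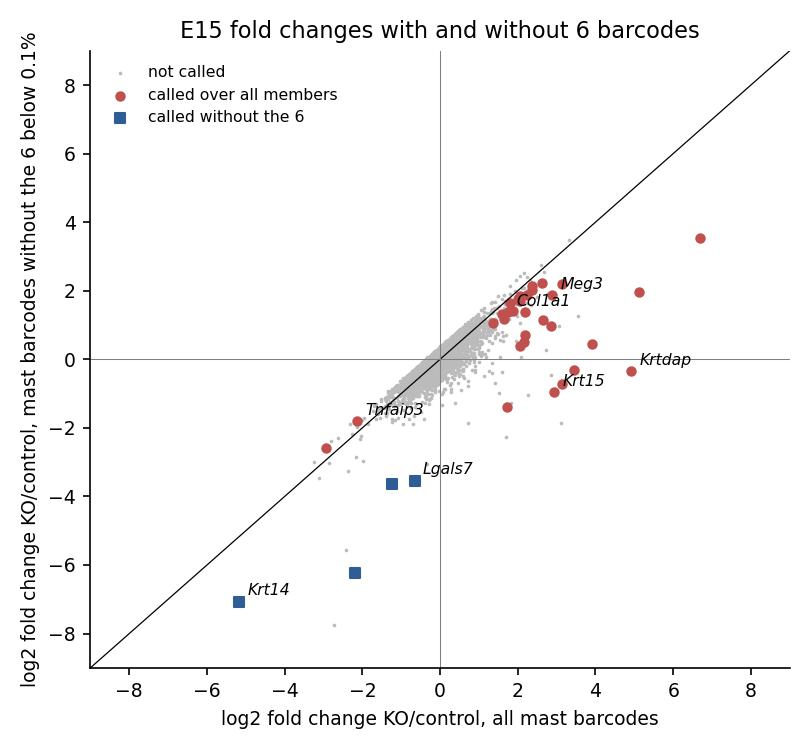
log2 fold change KO over control at E15 for each gene tested both over all mast barcodes (x axis) and over the 212 (y axis); red points were called over all members alone, blue squares over the 212, and the diagonal marks equal values. Krtdap stands at 4.92 on the x axis and −0.35 on the y axis, Krt15 at 2.93 and −0.96, and Col1a1 at 1.76 and 1.37; Krt14 and Krt5 had 1 KO UMI each over the 212, so their place on the y axis depends on the prior count.

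The number of calls depended on the libraries and members used. Leaving out KO 1, KO 2, WT or HET gave 264, 124, 232 and 158 calls over all members and 66, 58, 107 and 155 over the 212. Asking for 40 rule UMIs, which drops the 6 barcodes as well, gave 3. Krtdap and Krt15 turned negative over the 212, at −0.35 and −0.96. Col1a1, the collagen of fibroblasts, had 1.76 over all members (adjusted p 0.00323) and 1.37 over the 212 (0.398), Dcn 1.80 and 1.63 (0.00709 and 0.0938), and the imprinted genes Dlk1 2.01 and 1.75 (0.00331 and 0.0938) and Meg3 2.88 and 1.87 (0.00323 and 0.0938), all by edgeR. DESeq2 over the 212 gave adjusted p of 0.00971 for Dcn, 0.00177 for Dlk1 and 0.000549 for Meg3. The fits without 1 library leave 1 library in an arm and gave more calls than the full fit. A call in them was therefore not read as stability. The fibroblast marker list summed to 1407 and 2923 CPM in the KO members of the 212, against 808 CPM in WT and 853 CPM in HET, and to 16714 and 18608 CPM in the other barcodes of KO, against 13120 and 13251 CPM. In KO 2, 2 of the 71 members held 1556 of the 2771 UMIs of that list. Leaving out members with over 1% of UMIs in collagen genes took the log2 fold change over all members to 0.56 for Col1a1 (edgeR adjusted p 0.335), 1.33 for Dcn (0.0208), 1.27 for Dlk1 (0.0214) and 1.61 for Meg3 (0.00345).

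The 4 genes called over the 212 were all keratinocyte genes, lower in KO mast barcodes. Of them, Krt14 alone was also called over all members, at a log2 fold change of −5.18 (edgeR adjusted p 0.0035). There 5 of its 6 KO UMIs lay in the 6 barcodes below 0.1%. The bound removed KO barcodes alone, with up to 223 UMIs of the epithelial list, and so can lower such genes in KO by construction. Krt14 and Krt5 are the keratins of basal keratinocytes, Krt10 a keratin of the layers above, and Lgals7 a galectin of stratified epithelium. Krt14, on chromosome 11, had 0 and 1 UMIs in the KO members, against 30 UMIs in 17 WT members and 70 in 52 HET members (edgeR adjusted p 0.00127). Krt5 had 0 and 1 UMIs, against 23 and 31 (adjusted p 0.0314). Krt10 had 5 and 4 UMIs, against 22 and 43 (adjusted p 0.0206). Lgals7 had 7 and 6 UMIs, against 25 and 64 (adjusted p 0.00425). In the other barcodes of these libraries Krt14, Krt5 and Lgals7 were lower in KO as well (edgeR adjusted p 0.039, 0.0445 and 0.0423), and Krt10 had an adjusted p of 0.0503. Krt14 was at 0.675 and 8.55 CPM there in KO, against 485 CPM in WT and 159 CPM in HET, and its level in mast barcodes was below that in the other barcodes of every library. The order of the control libraries was also alike, with WT above HET in both kinds of barcode for each of the 4. How much of this RNA came from free transcripts was not tested.

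**Figure D5:**
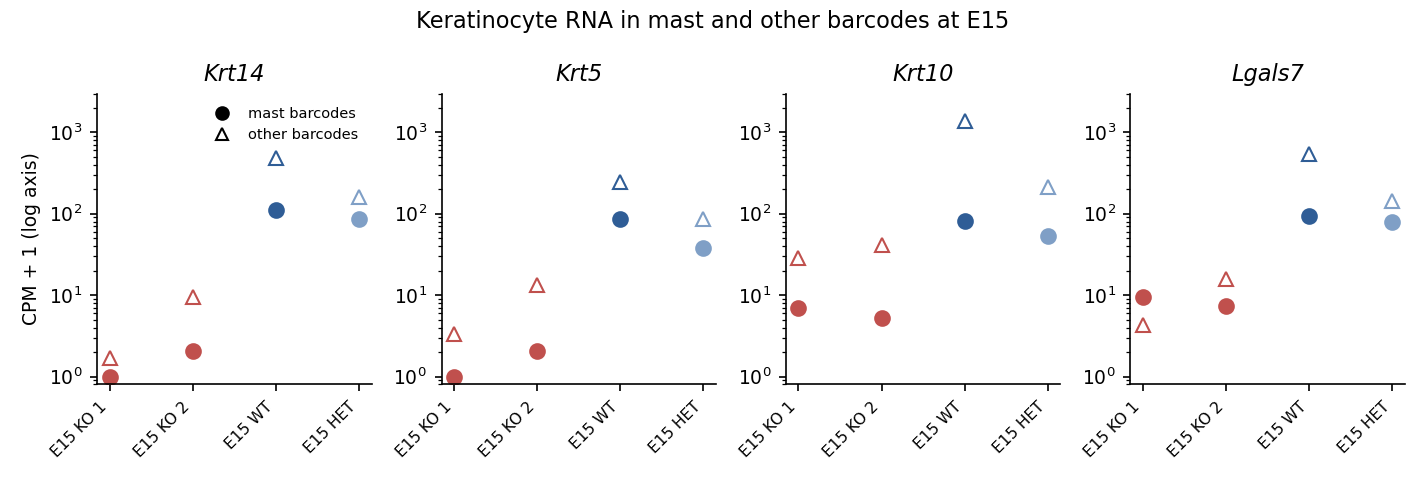
Level of 4 keratinocyte genes at E15 in mast barcodes (filled circles, over the 212) and in the other barcodes (open triangles) of each library, as CPM + 1 on a log axis. In control libraries both stand high, with WT above HET, and in KO libraries both stand low.

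Gpc5, a glypican, had 7 UMIs in the KO members, against 26 in the control members (edgeR adjusted p 0.0409 over all members and 0.161 over the 212). Tnfaip3, an inhibitor of NF-κB signalling, was lower in KO mast barcodes over all members. It had 82.0 and 61.2 CPM in KO over the 212, against 311.5 CPM in WT and 177 CPM in HET, and the groups do not overlap, as for 41.6% of tested genes. The log2 fold change was −2.15 ± 0.32 over all members (edgeR adjusted p 0.019) and −1.80 ± 0.30 over the 212 (adjusted p 0.0938), where DESeq2 gave an adjusted p of 0.00177. Of its 126 KO UMIs, 0 lay in the 6 barcodes, and the other barcodes had 2.02 to 3.75 CPM of it at E15, with a log2 fold change of −0.39 (edgeR adjusted p 0.587). The edgeR call was lost with 10 or 40 rule UMIs asked (log2 fold change −2.61 and −1.75, adjusted p 0.126 and 0.123), without scored doublets (−2.09, 0.0593) and with thinned members (−1.77, 0.173). With 1 library left out at a time, the log2 fold change of Tnfaip3 was −2.57 to −1.71 over all members and −2.23 to −1.36 over the 212. Such fits leave 1 library in an arm, so no call was read from them.

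The other functional lists gave no call in the mast barcodes in either set. These were the IgE receptor and signalling list (11 tested genes over the 212, median log2 fold change 0.14), growth factor and cytokine receptors outside the rule (5, −0.40), transcription factors outside the rule (11, 0.11), surface receptors (5, 0.34), eicosanoid synthesis (4, 0.13), exocytosis (7, 0.25), cytokines and chemokines (10, −0.42), homing (7, 0.22), S phase (16, 0.04) and G2 and M phase (16, −0.17), beside −0.02 over all genes tested over the 212. Over all members the medians were, in the same order, −0.21, −0.66, −0.14, −0.01, 0.08, 0.02, −0.78, −0.08, −0.07 and −0.35, beside −0.01 over all genes tested. The sign thus turned with the set for the IgE receptor, transcription factor, surface receptor, homing and S phase lists. Handling stress genes, the immediate early genes that tissue digestion raises, had 9 tested and a median of −0.23 over the 212 and −0.37 over all members. Over the 212 their summed levels were 3347.5 and 4109 CPM in KO, against 3634 CPM in WT and 3153 CPM in HET. A gene that missed the threshold is not shown to be equal in KO and control. The type 2 cytokine Il4 was detected in 42 of 54 and 58 of 71 KO members, against 13 of 17 WT and 35 of 52 HET members, at 128 and 122 CPM in KO, against 119 and 81.9 CPM. Il13 had 77.1 and 63.3 CPM in KO, against 33.4 CPM in WT and 84.3 CPM in HET.

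Markers of other cell types were summed in the members. The macrophage list summed to 33.8 and 20.04 CPM in KO over the 212, against 37.1 CPM in WT and 27.7 CPM in HET (28.2 and 157 CPM in KO over all members), and the eosinophil list to 3.62 and 3.16 CPM, against 3.71 and 1.20 CPM. The basophil list summed to 692 and 767 CPM in KO over the 212, against 441 CPM in WT and 402 CPM in HET. Of its genes, Prss34 was detected in 121 of the 194 E15 members. Its mean over the 4 E15 libraries was 346 CPM over all members. Mcpt8 had 22.9 and 22.15 CPM in KO, against 11.1 CPM in WT and 18.1 CPM in HET. Cd200r3, a receptor that mast cells share, had 209 and 238 CPM, against 92.7 and 98.7 CPM (edgeR adjusted p 0.0961 over the 212). Haemoglobin and other erythroid genes summed to 5540 and 12310 CPM in KO, against 2329 CPM in WT and 8964 CPM in HET; the other barcodes of the same libraries had 29986 and 59852 CPM, against 3884 and 14192 CPM. The endothelial list summed to 13.3 and 11.6 CPM in KO, against 0 CPM in WT and 172 CPM in HET, the melanoblast list to 1.21 and 11.6 CPM, against 18.5 and 61.4 CPM, the neutrophil list to 33.8 and 4.22 CPM, against 11.1 and 129 CPM, and the megakaryocyte, lymphoid and progenitor lists to 9.49 to 75.9 CPM in KO, against 7.23 to 45.8 CPM. None of these lists gave a call in the members, but few of their genes could be tested. The eosinophil, endothelial and melanoblast lists had 0 tested genes in either set. The macrophage, megakaryocyte and lymphoid lists had 0 over the 212 and 2, 1 and 1 over all members. Over the 212 the neutrophil list had 1, the progenitor list 1, the basophil list 3 and the erythroid list 5. Of the mast marker list, 0 of 6 tested genes outside the rule passed in either set. Mitochondrial genes took a median of 4.23% and 3.72% of a member's UMIs in KO, against 4.30% in WT and 4.54% in HET. A doublet score marked 1 and 3 KO members, against 0 and 1 in WT and HET. No barcode of a mast cell was shared between libraries.

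The other barcodes of the skin were compared for ligands known to act on mast cells or their precursors. Over the other barcodes at E15, 448 of 13549 genes (3.31%) passed in KO against control, and 4 of 9 tested skin ligands were among them, all higher in KO. Kitl, the KIT ligand, was not one of these, at 112 and 124 CPM in KO, against 99.2 CPM in WT and 83.5 CPM in HET (log2 fold change 0.38 ± 0.13, edgeR adjusted p 0.16). Cxcl12, a chemokine of stromal cells, had 218 and 214 CPM in KO, against 100 CPM in WT and 109 CPM in HET (1.06 ± 0.10, adjusted p 0.0115). Tgfb2, a growth factor of the TGF-beta family, had 56.7 and 43.8 CPM in KO, against 17.8 and 15.5 CPM (1.61 ± 0.16, adjusted p 0.0146), and Tgfb3 18.8 and 21.8 CPM, against 9.82 and 10.8 CPM (0.99 ± 0.15, adjusted p 0.032). Il33, the ligand of Il1rl1, had 3.65 and 5.04 CPM in KO, against 0.561 and 0.512 CPM (3.03 ± 0.41, adjusted p 0.0255). The calls of Tgfb3 and Il33 were lost without any 1 of the 4 libraries, the lowest adjusted p then being 0.0685 for Tgfb3 and 0.06 for Il33, and that of Tgfb2 without HET, at 0.0501. Over all other barcodes, more cells of a type and more RNA per cell cannot be told apart. Over barcodes that met the fibroblast rule alone, Cxcl12 (log2 fold change 0.74, edgeR adjusted p 0.0285), Tgfb2 (1.74, 0.0118) and Tgfb3 (1.12, 0.0386) passed and Il33 did not (1.83, 0.104). In these barcodes Kitl had 154 and 171 CPM in KO, against 173 CPM in WT and 132 CPM in HET. The 15 and 47 KO barcodes with at least 3 UMIs of Epcam, against 22 in WT and 17 in HET, were not tested. There Tgfb3 was at 1.71 and 2.29 CPM in KO, against 18.6 CPM in WT and 36.2 CPM in HET, and Tgfb2 at 49.6 and 48.8 CPM, against 90.9 and 63.9 CPM, so both lay below control in them. Kitl had 20.5 and 22.9 CPM, against 28.0 and 72.4 CPM, Il33 34.2 and 34.3 CPM, against 2.33 and 0 CPM, and Cxcl12 8.55 and 19.8 CPM, against 6.996 and 6.39 CPM.

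Neutrophil barcodes, with at least 20 summed UMIs of S100a8, S100a9, Ngp and Camp, were counted apart and numbered 5. There were 1 in E15 KO 1 and 1 in E15 KO 2, against 0 in WT and 2 in HET of that age, and 1 in E13 KO 1. The shares at E15 were 0.102% and 0.0752% in KO, against 0% (0 of 505 barcodes, which allows up to 0.594%) in WT and 0.258% in HET, or 0.0885% ± 0.0188 in KO and 0.129% ± 0.183 in control (SD, n = 2 each; p = 1, two-sided exact permutation test, smallest possible p 0.33). The sign of the difference turned without HET, from which all control neutrophil barcodes came. The 4 barcodes of E15 each carried Ngp and Camp, genes of neutrophil secondary granules, with 170 to 2429 UMIs a gene, while the barcode of E13 KO 1 had 299 UMIs of S100a8 and 290 of S100a9 but 0 of Ngp and 0 of Camp. Mpo and Elane, primary granule genes of early neutrophil precursors, had 0 UMIs in all 5. No barcode met both the mast and the neutrophil rule. Asking for 10 UMIs gave 7 in HET and left the other E15 libraries at the same numbers. In HET, S100a8 was at 48.8 CPM in barcodes that met neither rule and 44.6 CPM in mast barcodes, against 0.281 and 0 CPM in WT.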

How the data were processed

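Single-cell RNA was measured in 8 libraries of mouse back skin. The deposited values were counts, whole-number UMI counts per gene and barcode with no normalization. Cell Ranger, Seurat and the mm10 build are named per the submitters' processing notes, with versions not given in the sources used here. Libraries held 8177867 to 26456164 UMIs. Gene positions came from GENCODE M21 on GRCm38. Control holds the WT and HET libraries, as in the arms the series design names; n is the library.

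Members, gene lists and tests were chosen with earlier results of these data known. UMIs of members were summed per library and E15 KO was compared with control in the 4 E15 libraries with edgeR 4.0.16 (filterByExpr, TMM, quasi-likelihood test) in R 4.3.3, with p adjusted over all tested genes by the Benjamini-Hochberg method and a limit of 0.05; DESeq2 1.42.0 was an alternative. The SE of a log2 fold change was derived from the test, as its size over the root of F. The scripts were tested on simulated data. Shares and summed levels were compared with exact permutation tests over libraries. Named were the genes of the 27 lists, the 20 genes with the highest ratio of mast to other barcodes at E15, and up to 15 called genes a direction by size of change among those with at least 50 CPM in 1 arm; others named among the calls were picked after their values were seen, and 1 called gene is not reported here. The bound of 0.1% of UMIs in the rule genes was added after the data were seen. No doublet was removed, and removal by markers or by a score was an alternative. The labels do not pair a KO library with a control library. Exact binomial intervals used 95%. Free RNA was not subtracted.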

Additional observations from a re-analysis of the deposited data

How the results depend on the processing

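No paired analysis was possible because KO and control libraries share no replicate number in the labels. At 2 libraries against 2, no permutation test can pass 0.05, so only directions can change. The KO minus control difference ranged from −1.05 to 2.30 percentage points for the mast share (0.63 with all libraries), from −0.17 to 0.0885 for the neutrophil share (−0.0407), from −12.5 to 6.52 for dividing members (−2.97; 3.60 when 5 UMIs were asked) and from 313 to 519 CPM for granule genes outside the rule (416; −560 at 10 rule UMIs) when 1 library was left out at a time.

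Calls over all members numbered 53. Leaving out 1 library gave 124 to 264, library totals 87, no low-count filter 362, 10 rule UMIs 14, 40 rule UMIs 3, scored doublets left out 12, and the 0.1% bound 4 (13 with DESeq2). Members thinned to 3000 UMIs gave 0 by edgeR, with 136 genes at an unadjusted p under 0.05, among 2182 tested. Size factors by RLE gave 42 and DESeq2 gave 48. Calls in the other barcodes numbered 448, against 106 to 232 with 1 library left out, 833 by DESeq2, 1747 with no low-count filter and 257 in fibroblast barcodes. The cause was not tested, beyond the fewer genes or libraries that a setting brings.

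Of 224 alternative values for 17 named genes (the 3 rule genes among them are a description), 163 kept direction and side of the threshold, 41 lost a call, 11 gained one and 9 turned round. Those that turned were Cma1 without WT (−0.01, in a range up to 0.48 with 1 library left out) and at 10 rule UMIs (−0.24), Cpa3 at 10 rule UMIs (−0.02), Krt15 at 40 rule UMIs (−0.94), over the 212 (−0.96) and there with DESeq2 (−1.02), and Krtdap in the same settings (−0.30, −0.35 and −0.40). Levels of a few UMIs in WT rest on 17 members, and its depth limits what can be seen there.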

Other observations

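In some E15 libraries 1 member held most of the RNA of an inflammatory chemokine. In WT, 1 of 17 mast barcodes held 136 of 140 UMIs of Ccl3, 137 of 140 UMIs of Cxcl2 and 48 of 53 UMIs of Il6, genes of an acute inflammatory response. In KO 2, 1 of 71 held 46 of 48 UMIs of Ccl3, and in KO 1, 1 of 54 held 82 of 123 UMIs of Ccl4, while HET had 1 UMI of Ccl3 over 52 members. In KO 1 the top member held 16.7% of the UMIs of Ccl3 and 37.5% of those of Cxcl2, and in KO 2 it held 41.4% of those of Ccl4. Ccl3 was at 7.23 and 50.6 CPM in KO, against 519 CPM in WT and 1.20 CPM in HET, and these levels rest on those barcodes. Il4 was spread over members, with at most 7 UMIs in any 1 of them at E15.

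Osm, the cytokine oncostatin M, was in 24 of 54 and 40 of 71 KO members, against 11 of 17 WT and 26 of 52 HET members, at 111 and 170 CPM in KO, against 193 and 113 CPM in control.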
